A study of Homo sapiens with 3 samples.

Results

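The genes described here are 8 enzymes that make asparagine, alanine, aspartate, glutamine, proline and cysteine, read in A549 cells, an established human lung adenocarcinoma line, with and without shRNA against the RNA helicase DDX24. They were chosen by name (ASNS, GPT2, GOT1, GLUL, ALDH18A1, PYCR1, CTH and CBS), and all 8 were found among the 58735 genes of the deposited tables. The study used RNA sequencing to look for how DDX24 acts on autophagy and lung cancer progression, with 3 libraries, 1 per condition. Control-sh is the library labelled as the knockdown control, and DDX24-sh1 and DDX24-sh2 carry the labels Knockdown1 and Knockdown2 of DDX24. All were cultured in F12K medium with serum, and per the study's methods lentiviral vectors (pLKO.1) and puromycin gave stable lines. The control is the empty vector in one place and a control shRNA in another, and which of them the library holds is not stated. No condition has a replicate, so no test was run and no p-value is given. Intervals are exact 95% intervals of the counts, which cover counting error only and not the variation between cultures. Where 3 values are listed they follow the order control, first hairpin, second hairpin, and pairs of log2 ratios to the control have the hairpins in the same order.

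These enzymes build several non-essential amino acids from glutamate, aspartate and serine. Asparagine synthetase (ASNS) moves nitrogen from glutamine onto aspartate. Alanine aminotransferase 2 (GPT2) and the cytosolic aspartate aminotransferase (GOT1) exchange amino groups between amino acids and keto acids, and glutamine synthetase (GLUL) fixes ammonia onto glutamate. ALDH18A1 carries out the first steps from glutamate towards proline and PYCR1 the last, in mitochondria. In transsulfuration, cystathionine beta-synthase (CBS) joins homocysteine to serine and cystathionine gamma-lyase (CTH) releases cysteine. The transcription factor ATF4 raises several of these genes when amino acids run short, and it binds a composite C/EBP-ATF element, first mapped upstream of ASNS, whose core is written TGATGNAA.

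That core is shown for the 2 enzymes that held it in RefSeq promoter windows, since 1 of them was the lowest member in DDX24-sh1 and the other stayed near the control. The lowest place of ASNS rests on 3 counts, and CBS was lower once an overlapping gene, described below, was added to ASNS. Each line gives 30 bases on the strand of the gene, GRCh38.p14, with the matching letters in capitals.
ASNS, chr7:97872458-97872487, minus strand: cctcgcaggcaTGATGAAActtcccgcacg
GOT1, chr10:99430804-99430833, minus strand: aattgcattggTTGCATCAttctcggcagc
The ASNS match ran along the gene from -68 to -61, counted from the RefSeq start of 1 of its 2 windows. The other ASNS window held no match. The GOT1 match lay on the reverse strand from -198 to -191. Both stretches also lie in the first exon of a GENCODE 29 transcript that starts farther upstream. The search covered both strands of 300 bases per window, 250 before and 50 after the start. The table held 10 windows for 6 of the 8 genes, with GPT2 and PYCR1 not among them. No match was found in the windows of GLUL, ALDH18A1, CTH or CBS, and 3.62% of all 35116 windows held one. A match of letters is a description and not a bound site.

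Facts of the whole series were brief. Total counts lay between 17218884 and 18337471 per library, and mitochondrial genes took 4.36% to 7.04% of them, most in DDX24-sh2. DDX24, the targeted gene, was at 29.6% and 36.0% of the control level. All 7 genes fixed as markers of the A549 line, among them the keratins KRT8 and KRT18, were at 1 CPM (counts per 1000000 counts) or more in every library. Of 6 alveolar type 2 genes, 2 were at 1 CPM or more in every library, and their summed CPM was 65.4 to 84.9. Only the regulator NKX2-1 among them had no count in any library. The leukocyte genes PTPRC and CD3E had no count either, and the summed CPM was 4.27 to 8.38 for 5 leukocyte genes, 0.609 to 1.05 for 4 endothelial genes and 8.59 to 10.4 for 4 fibroblast genes. The deposited FPKM values matched the counts of all 3 libraries only when the labels of the 2 shRNA libraries were exchanged. The names used here follow the counts, and which label is right is not known.

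Across the 8 enzymes, the shRNA libraries held less CBS, ASNS, PYCR1 and GPT2 than the control. GOT1 and ALDH18A1 stood between 90.9% and 112% of the control level, and GLUL at 146% and 113%. CTH was lower in DDX24-sh2 alone. Fold limits were read over the 13984 genes whose mean reached 1 CPM, and all 8 enzymes are among them. ASNS, with a mean of 1.04 CPM, reached this floor only through the control library, so a lower ratio was favoured by its entry and its calls are a description only. In DDX24-sh1, 3 enzymes were at least 2-fold lower (ASNS, CBS and GPT2), beside 2.27% of all genes. In DDX24-sh2, 4 were (CBS, ASNS, CTH and PYCR1), beside 3.07%. In both libraries, ASNS and CBS passed this limit, where 1.38% of all genes did. CBS alone did so with a floor of 10 CPM or with the overlapping gene AC079781.5 added to ASNS. CBS reached that higher floor only through the control library (23.3, 6.51 and 4.93 CPM), so this too is a description only. The share of all genes at that floor is not given. None of the 8 was 2-fold higher in either library, beside 2.32% and 2.89% of all genes. At 1.5-fold, 4 enzymes were lower in DDX24-sh1, beside 8.25% of all genes, and 5 in DDX24-sh2, beside 9.51%. ASNS, GPT2, PYCR1 and CBS were lower in both, beside 4.72%. None was 1.5-fold higher, beside 7.59% and 8.6% of all genes. The 8 enzymes had median log2 ratios of -0.44 and -0.98, against -0.02 and -0.03 for all genes tested. The 8 were chosen with earlier results of these data known, so these shares and medians are a description only. Both comparisons share the single control library, so the 2 sets of ratios are not independent. These are bulk libraries, in which fewer cells with a transcript and less of it per cell cannot be told apart.

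**Figure D1:**
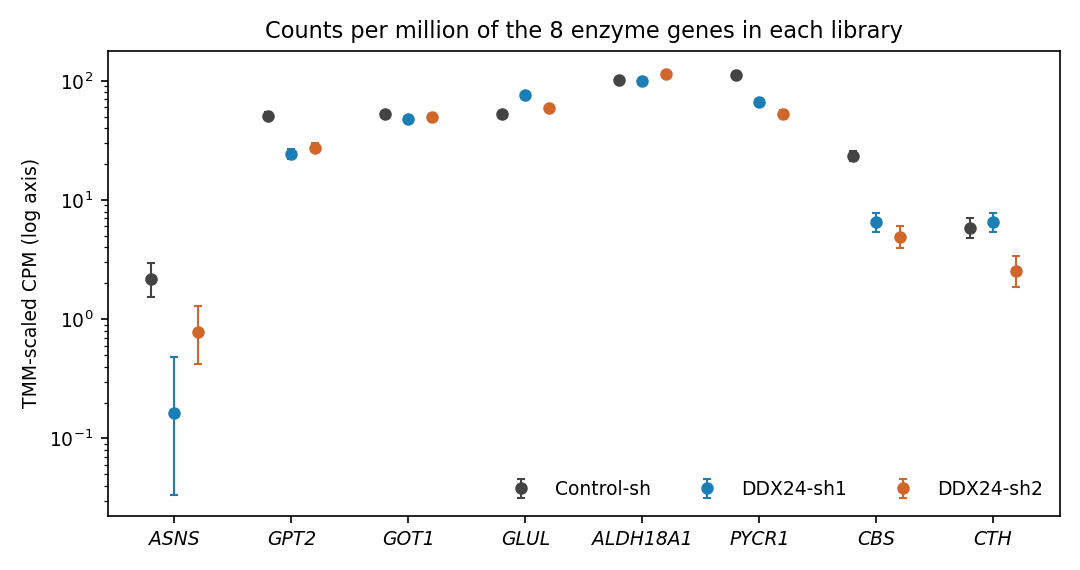
TMM-scaled CPM (log axis) of the 8 enzyme genes in each of the 3 libraries, with exact 95% counting intervals as bars and 1 library per point. CBS and ASNS stand lower in both shRNA libraries than in Control-sh, GOT1 and ALDH18A1 stand at nearly the same height in all 3, and CTH is low in DDX24-sh2 only.

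CBS, the entry enzyme of transsulfuration, had the lowest ratio of the 8 in DDX24-sh2 and the second lowest in DDX24-sh1. The gene (ENSG00000160200) occupies 43053191 to 43076943 of chromosome 21 in GRCh38, minus strand. CBS was counted 398 times in the control and 119 and 89 times with the hairpins. The control library was high and both shRNA libraries were low. After scaling, 27.9% of the control level was left in DDX24-sh1. With a prior count of 2 the log2 ratio was -1.82 (interval, without the prior count, -2.15 to -1.54). In DDX24-sh2 the level was 21.1% of the control, and the log2 ratio with the prior count was -2.22 (interval -2.59 to -1.91). Of all genes tested, 51 had a lower ratio than CBS with the first hairpin and 36 with the second. The shRNA libraries did not differ from each other beyond counting error (second against first, -0.39 as a log2 ratio, interval -0.81 to 0.0085).

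GRCh38 holds a second copy of CBS on the same chromosome, CBSL, at 6444869 to 6468040. Their transcripts are 99.96% identical over 2514 nt. CBSL had no count in any library, so the summed count of both genes was that of CBS alone. How reads matching both copies were treated is not given in the sources used here, and the absolute level of CBS carries that limit in all 3 libraries alike.

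CTH acts on the product of CBS, and its level differed between the 2 hairpins. The gene (ENSG00000116761, chromosome 1, 70411218 to 70439851, plus strand) shares no exonic base with another. CTH was counted 100 times in the control, 119 times with the first hairpin and 46 times with the second. The DDX24-sh2 library was low, and the other two were alike. Against the control, the log2 ratio was 0.15 for the first hairpin (interval -0.24 to 0.55) and -1.17 for the second (interval -1.74 to -0.68). Set directly against DDX24-sh1, the level in DDX24-sh2 was 39.2%. The log2 ratio with the prior count was -1.31 (interval -1.88 to -0.85), and 48 of all genes tested lay lower in this comparison. CTH was the only one of the 8 at least 2-fold lower in DDX24-sh2 than in DDX24-sh1, a limit passed by 1.01% of all genes. The count stayed at 1 at 1.5-fold, a limit passed by 4.84%. Because the FPKM values carry exchanged labels, which of the hairpins goes with the low CTH level is not known.

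Within a library, levels per length can be set side by side without any scaling between libraries. In RPKM, which are CPM per kilobase of exon, CBS was at 3.44 and CTH at 2.43 in Control-sh, a ratio of CBS to CTH of 1.42. In DDX24-sh1 the ratio was 0.356, with CBS at 0.959 and CTH at 2.70 RPKM. In DDX24-sh2 it was 0.688, with both enzymes low at 0.727 and 1.06 RPKM and their counting intervals overlapping. By this measure CBS was the higher of the pair in the control library and the lower in DDX24-sh1. The length used is that of all annotated exons of a gene, 6786 bases for CBS and 2414 for CTH. The longest coding CBS transcript has 2605 nt. Both genes had 119 counts in DDX24-sh1, so which of them is higher in an shRNA library depends on the length used. How the ratio differs between libraries does not.

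ASNS was the least counted of the 8 in every library. The gene (ENSG00000070669) occupies 97852118 to 97872542 of chromosome 7, minus strand. The control held 37 counts of it, DDX24-sh1 only 3 and DDX24-sh2 14. At 0.487 RPKM in the control, it was below 12774 of the 13984 genes tested. The control library was the highest and DDX24-sh1 the lowest. With a prior count of 2 the log2 ratios were -3.04 and -1.36. Without it the ratios were -3.72 (interval -6.07 to -2.07) and -1.48 (-2.48 to -0.56). From 3 counts the size of the difference in DDX24-sh1 is poorly fixed, although both intervals lay below 0. DDX24-sh2 stood above DDX24-sh1 by 1.68 on the log2 scale with the prior count and by 2.24 without it (interval 0.40 to 4.68), and ASNS was the only one of the 8 at least 2-fold higher in that comparison, beside 1.3% of all genes. It was also the only one at 1.5-fold, beside 5.33%.

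The low ASNS count has to be read against the annotation. A readthrough gene on the same strand, AC079781.5 (chromosome 7, 97851688 to 97972985), covers 1985 of the 4455 exonic bases of ASNS and 96.1% of its 1752 coding bases. None of the other 7 enzymes shared a coding base with another gene on its own strand. AC079781.5 itself was counted 4, 14 and 18 times, so it was lowest in the library where ASNS was highest. Summed over both genes, the counts were 41, 17 and 32, with log2 ratios of -1.37 (interval -2.28 to -0.52) and -0.44 (-1.15 to 0.26). The sum, chosen after the values were seen, was no longer 2-fold lower in DDX24-sh2. Between the shRNA libraries (second against first) its log2 ratio was 0.93 (interval 0.04 to 1.87), no longer 2-fold either. How reads on the shared exons were assigned is not given in the sources used here, and its part in the ASNS counts was not tested.

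**Figure D2:**
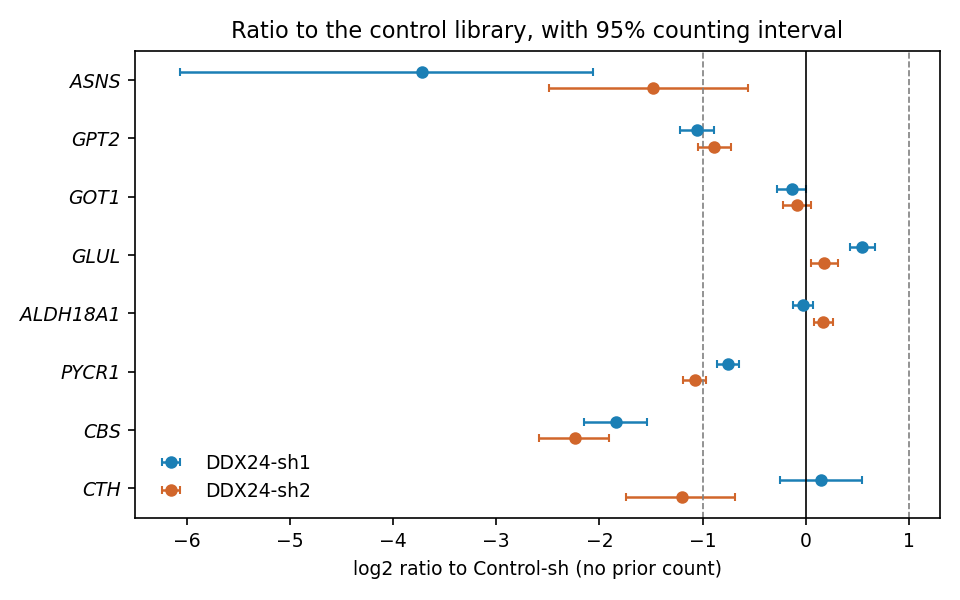
Log2 ratio of each shRNA library to Control-sh for the 8 enzymes, from TMM-scaled counts with no prior count, with exact 95% counting intervals as bars and dashed lines at 2-fold. ASNS has by far the widest intervals, and the points of CBS and ASNS lie beyond 2-fold in both libraries. The points of CTH, GPT2 and PYCR1 fall on different sides of the dashed line at -1, and those of CTH are the farthest apart.

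Proline synthesis divided between its first and last enzymes. ALDH18A1, which turns glutamate into the proline precursor, is ENSG00000059573 (chromosome 10, 95605929 to 95656706, minus strand). It was counted 1728, 1823 and 2055 times. DDX24-sh2 was the highest and the other two were alike, with log2 ratios of -0.02 (interval -0.12 to 0.07) and 0.17 (0.08 to 0.26). PYCR1, which reduces the precursor to proline, is ENSG00000183010 (chromosome 17, 81932384 to 81942412, minus strand). It was counted 1912 times in the control and 1216 and 959 times with the hairpins. Both shRNA libraries were low, at 59.3% and 47.4% of the control level, and DDX24-sh2 was the lower of them. The log2 ratios were -0.75 (interval -0.86 to -0.65) and -1.07 (-1.19 to -0.96), and the ratio between the shRNA libraries was -0.32 (interval -0.45 to -0.20). PYCR1 in DDX24-sh2 lay close to the 2-fold limit. MYADML2, on the same strand, shares 408 of the 2886 exonic bases of PYCR1, none of them coding, and had 1, 2 and 5 counts. PYCR1 was the most abundant of the 8 per length in Control-sh (38.8 RPKM), ahead of ALDH18A1 (26.9 RPKM). In both shRNA libraries ALDH18A1 was ahead, and the ratio of ALDH18A1 to PYCR1 went from 0.693 in Control-sh to 1.15 and 1.64. Which of them is ahead depends on the length of all exons used here. The longest coding PYCR1 transcript has 1904 nt.

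The cytosolic reductase PYCR3 did not follow PYCR1. It had 426, 697 and 710 counts and was higher in both shRNA libraries, with log2 ratios of 0.61 (interval 0.43 to 0.79) and 0.65 (0.48 to 0.83). Per length, PYCR1 stood at 5.05 times PYCR3 in the control and at 1.96 and 1.52 times with the hairpins. PRODH, which starts proline breakdown, had no count in Control-sh or DDX24-sh1 and 4 in DDX24-sh2. ALDH4A1, which completes the breakdown, had log2 ratios of -0.03 and -0.37.

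The aminotransferases also divided. GPT2, the mitochondrial enzyme that forms alanine from pyruvate, is ENSG00000166123 (chromosome 16, 46884378 to 46931297, plus strand). GPT2 was counted 867 times in the control and 447 and 496 times with the hairpins. Both shRNA libraries were low and alike, at 48.1% and 54.1% of the control level. The log2 ratios were -1.05 (interval -1.22 to -0.89) and -0.88 (-1.05 to -0.73), and the ratio between the shRNA libraries was 0.17 (interval -0.02 to 0.36). The cytosolic form, GPT, was thinly counted, at 27, 46 and 28. The GPT ratios, 0.63 (interval -0.05 to 1.41) and -0.03 (-0.84 to 0.79), could not be distinguished from 0 at this depth. Per length, GPT2 stood at 13.9 times GPT in the control and at 4.21 and 7.68 times with the hairpins.

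GOT1, the cytosolic partner of the malate-aspartate shuttle, is ENSG00000120053 (chromosome 10, 99396870 to 99431569, minus strand). Its counts of 897, 874 and 895 were nearly equal. The log2 ratios were -0.14 (interval -0.27 to -0.0013) and -0.08 (-0.22 to 0.05). GOT2, its mitochondrial counterpart, was just as level, at 4246, 4707 and 4666 counts, or log2 ratios of 0.05 and 0.06. Per length, GOT1 stood at 0.236, 0.208 and 0.214 of GOT2. An opposite-strand RNA, AL391684.1, shares 651 of the 3369 exonic bases of GOT1 and had 15 to 29 counts.

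GLUL, which makes glutamine, was the only one of the 8 whose interval lay above 0 in both shRNA libraries. The gene (ENSG00000135821) occupies 182381704 to 182392206 of chromosome 1, minus strand. GLUL was counted 891, 1396 and 1068 times. The control library was the lowest and DDX24-sh1 the highest. The log2 ratios were 0.55 (interval 0.43 to 0.67) and 0.18 (0.05 to 0.31), and DDX24-sh2 stood below DDX24-sh1 by a log2 ratio of -0.37 (interval -0.48 to -0.25).

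Placed among all genes, the 8 enzymes ranged from the far lower tail to above the middle. In DDX24-sh1, 276 genes tested had a lower ratio than GPT2 and 658 than PYCR1. In DDX24-sh2 the corresponding numbers were 565 for GPT2, 357 for PYCR1 and 283 for CTH. ASNS also lay far down, but its rank rests on 3 and 14 counts and on the floor that it passed only through the control. GOT1 and ALDH18A1 lay within the bulk in both libraries, with 5153 and 6965 genes below them in DDX24-sh1. GLUL had 1192 genes above it in DDX24-sh1 and 3857 in DDX24-sh2. ATF4, which binds the element shown above for ASNS, was counted 7178, 4137 and 3818 times and stood at 53.8% and 50.3% of the control level. Its part in the levels of these enzymes was not tested.

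**Figure D3:**
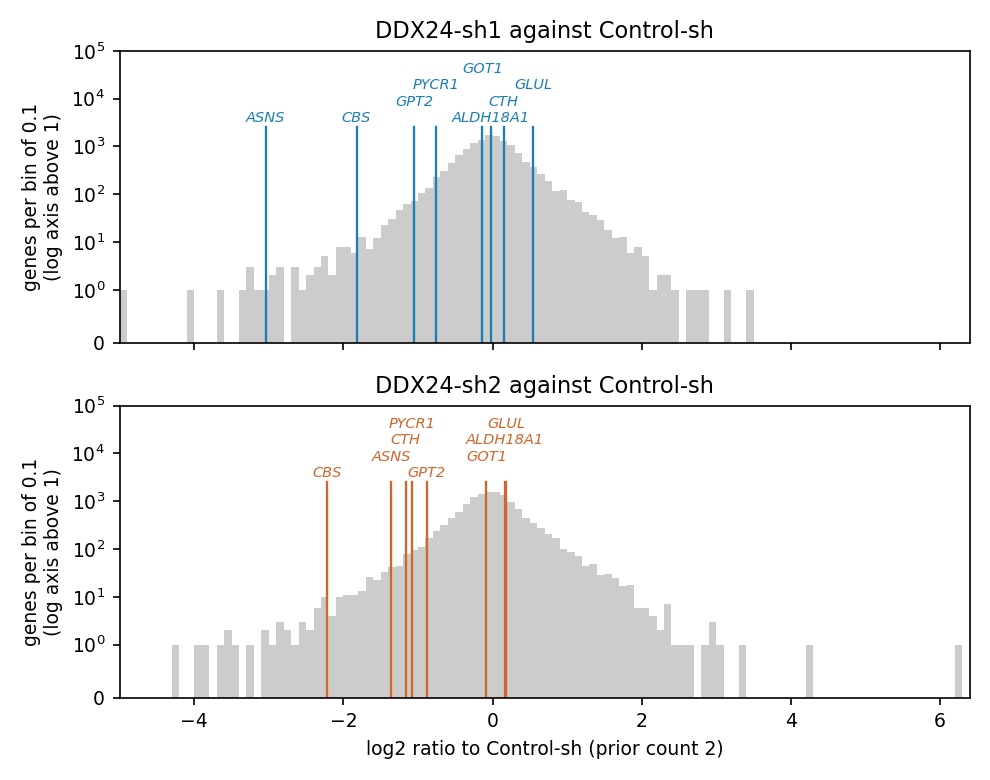
Distribution of log2 ratios to Control-sh over the 13984 genes tested (grey bars, bins of 0.1, log axis above 1), with the 8 enzymes as coloured lines, for each shRNA library. CBS and ASNS lie in the lower tail of both panels, whereas GOT1 and ALDH18A1 lie near the peak.

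The order of the levels per length also differed between the libraries. In the control it ran PYCR1, ALDH18A1, GOT1, GPT2, GLUL, CBS, CTH and ASNS from 38.8 down to 0.487 RPKM, and no neighbours had overlapping counting intervals. In both shRNA libraries ALDH18A1 stood before PYCR1, GLUL before GPT2 and CTH before CBS, and CTH and CBS in DDX24-sh2 were the only neighbours whose intervals overlapped. The order depends on the length of all annotated exons, which the counting intervals do not cover. For GLUL this length is 9032 bases, against 4719 nt in its longest coding transcript. Another choice of length could change the order. The 8 levels summed to 101 RPKM in the control and to 79.7 and 76.2 RPKM with the hairpins.

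Other genes of these pathways were taken from 3 lists that leave out the 8 enzymes. Of 65 genes listed, 51 reached a mean of 1 CPM and 7 had no count in any library. None of the 51 was 2-fold lower or 2-fold higher in both shRNA libraries, beside 1.38% and 1.19% of all genes. The medians over the 51 were 0.05 and 0.06. At 1.5-fold, 1 gene was lower in both libraries and 4 were higher, beside 4.72% and 4.23% of all genes. Chosen after their values were seen, these were ARG2 (lower), the mitochondrial arginase, and ABAT, GLUD2, PYCR3 and CSAD (higher). ARG2 rested on 48, 27 and 21 counts.

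On the side of glutamate, glutamine and aspartate, 20 of 26 genes were tested, and their median log2 ratios were 0.10 and 0.16. In addition to GOT2, among the best counted were GFPT1, which uses glutamine to start hexosamine synthesis (log2 ratios -0.51 and -0.64), and CAD, which uses it to start pyrimidine synthesis (-0.19 and -0.20). ASRGL1, which hydrolyses asparagine, had 178, 162 and 118 counts and log2 ratios of -0.23 (interval -0.55 to 0.08) and -0.66 (-1.02 to -0.33). ABAT, which breaks down the transmitter GABA, had 41, 95 and 73 counts and log2 ratios of 1.08 and 0.73. GLUD2 (0.85 and 0.65) is an intronless copy of GLUD1, and reads of the copies can be exchanged.

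On the proline, ornithine and arginine side, 11 of 14 genes were tested, with medians of -0.03 and 0.20. PEPD, which releases proline from dipeptides, had log2 ratios of 0.22 and -0.23. ODC1, the first enzyme of polyamine synthesis, had -0.10 and 0.29. OAT, which links ornithine to the proline precursor, was higher in both libraries (1372, 2061 and 1930 counts, log2 ratios 0.49 and 0.41). P4HA2, a subunit of the collagen prolyl hydroxylase, had 0.22 and 0.23.

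On the side of cysteine, methionine and glutathione, 20 of 25 genes were tested, with medians of -0.02 and -0.02. MAT2A, which makes S-adenosylmethionine, had 4108, 5721 and 6976 counts and log2 ratios of 0.38 (interval 0.32 to 0.44) and 0.68 (0.63 to 0.74). AHCY, which yields the homocysteine that CBS uses, had log2 ratios of -0.10 and -0.02. Those of GSR, which reduces glutathione, were -0.04 and -0.19, and those of AHCYL1, a relative of AHCY, were 0.27 and 0.06. CSAD, which acts on a cysteine product on the way to taurine, had 55, 105 and 153 counts and log2 ratios of 0.81 and 1.36.

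**Figure D4:**
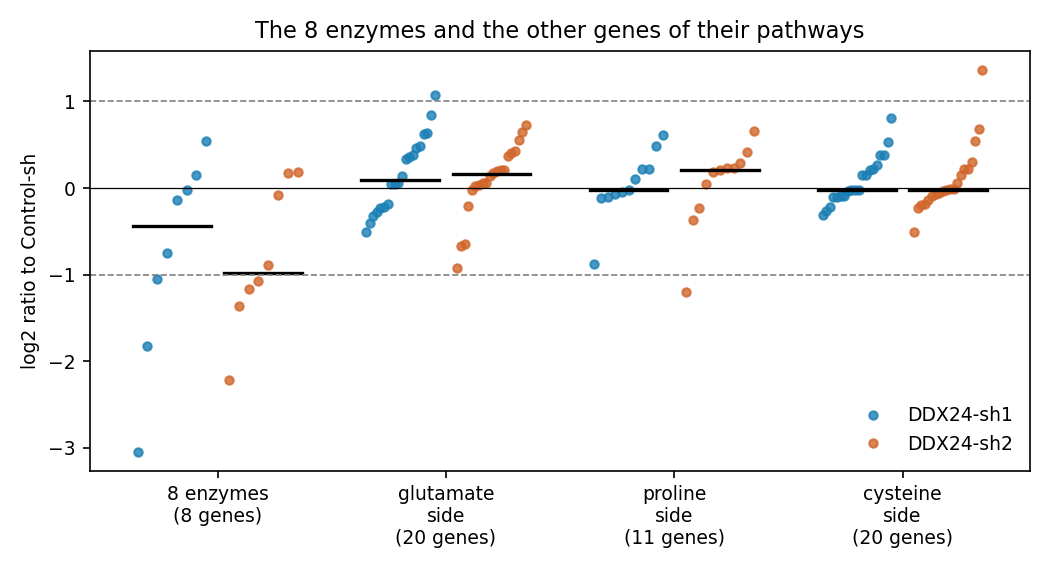
Log2 ratios to Control-sh of the 8 enzymes and of the 51 other pathway genes tested, 1 point per gene and shRNA library, with medians as black bars and dashed lines at 2-fold. The medians of the 3 lists lie between -0.03 and 0.20, and those of the 8 enzymes are -0.44 and -0.98.

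The genes most like 3 of the enzymes were sought among about 9660 genes whose mean reached 10 CPM, by the distance between their pairs of log2 ratios. Nearest to PYCR1 were LURAP1L, SIM2 and DLC1, at distances of 0.03 to 0.05. Nearest to CTH were COL12A1, a fibril-associated collagen, at 0.15, then FBLN2 and ADRA1B at 0.35 and 0.36. For ASNS no close neighbour was found, and the nearest genes, CXCL2, TM4SF20 and IL11, lay at 0.80 to 1.18. The likeness covers 3 libraries, with the control shared by both ratios.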

How the data were processed

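For 3 libraries, the authors deposited unnormalized whole-number counts of each gene and its FPKM value. The submitters' processing notes name Bowtie2 2.0.6, TopHat2 2.0.9, Cufflinks 2.1.1 and Cuffdiff 2.1.1. The counter, the strand setting and the build are not given in the sources used here. All 58735 genes have the start and end of GENCODE 29 on GRCh38.

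Counts were scaled by TMM in edgeR 4.0.16 (R 4.3.3), and log2 CPM was taken with a prior count of 2. Percentages of a level and the intervals were computed without the prior count. Levels per length (RPKM) used the scaled counts and the gene length of the files. For the 8 enzymes this is the length of all annotated exons together, so levels set between genes depend on it. No count model was fitted, because each condition has 1 library. Intervals are Clopper-Pearson for ratios and Poisson for levels, computed with scipy 1.17.1. The reads carried no molecular identifiers, so counting error is a lower limit. Fold limits were applied to genes whose mean reached 1 CPM. Exon overlaps came from GENCODE 29, similar transcripts from BLAST 2.17.0 and promoter windows from RefSeq, GRCh38.p14. The ratio interval and the fold limit were tried on simulated Poisson counts, which hold no variation between cultures. The scaling of the libraries was not part of that trial. Figures were drawn with matplotlib 3.10.9.

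The 8 genes and the lists were chosen with earlier results of these data known. Named are the 8 genes, their fixed partner enzymes, in each list the genes past 2-fold in both libraries and the 4 best counted, and the 3 genes nearest to ASNS, PYCR1 and CTH. Some genes that the rule takes are not reported here. Other genes are named as chosen after their values were seen. The alternatives were DESeq2 1.42.0 size factors, total counts with and without mitochondrial genes, the deposited FPKM with a pseudocount of 0.1 or 1, a prior count of 0.5, other limits, and CBS summed with CBSL or left out. ASNS summed with AC079781.5 was added later.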

Additional observations from a re-analysis of the deposited data

Results flagged for a closer look

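CTH had a log2 ratio to the control above 0 in DDX24-sh1, within counting error (0.15, interval -0.24 to 0.55), and below 0 in DDX24-sh2 (-1.17, interval -1.74 to -0.68). The log2 ratio between the shRNA libraries was -1.31, and with 1 library each the difference was not tested against variation between cultures. ALDH18A1 also had ratios of different sign, with a log2 ratio of 0.19 between the shRNA libraries, and its ratio to the control in DDX24-sh1 was likewise within counting error. This difference was not tested either.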

How the results depend on the processing

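DESeq2 size factors, total counts with or without mitochondrial genes, a prior count of 0.5 and FPKM + 0.1 with exchanged labels left every ratio of the 8 enzymes inside its counting interval and the numbers past 2-fold unchanged. The intervals of ASNS are wide. In the FPKM setting its ratio in DDX24-sh1 became -2.09, and that of DDX24-sh2 to DDX24-sh1 became 1.002. A pseudocount of 0.1 is above the level of ASNS in DDX24-sh1 (0.037 RPKM). With FPKM + 0.1 and labels as given, the hairpins changed places: CTH in DDX24-sh2 became 0.16, the ratios of DDX24-sh2 to DDX24-sh1 became 1.28 for CTH and -1.002 for ASNS, and the medians became -0.96, -0.43 and 0.14 (DDX24-sh1 and DDX24-sh2 to control, and DDX24-sh2 to DDX24-sh1). With FPKM + 1 and exchanged labels, a pseudocount above the level of ASNS and near that of CBS, the medians were -0.32 and -0.53, and 1, 2 and 1 enzymes were 2-fold lower in DDX24-sh1, DDX24-sh2 and both. Without CBS the DDX24-sh1 median was -0.14. A mean of at least 10 CPM, which drops ASNS and CTH, left 2 enzymes 2-fold lower in DDX24-sh2 and 1 in both, and 0 of the other pathway genes in any direction, against 1 lower in DDX24-sh2 and 1 higher in each library. CBS passed that floor only through the control library. For the FPKM settings and for that floor the share of all genes is not given. The numbers of genes past a limit there are a description only. At 1.5-fold, 4 enzymes were lower in both, and of the other pathway genes 1, 4 and 1 were lower and 6, 5 and 4 higher in DDX24-sh1, DDX24-sh2 and both. With AC079781.5 added to ASNS, 1 enzyme was 2-fold lower in both. No paired analysis was possible because each condition has 1 library. Depth limits ASNS most, at 3 to 37 counts.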
